A study of Mus musculus with 6 samples.

Results

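Genes that are read as signs of a mesenchymal transition were followed in sorted endothelial cells, 10 in all: the transcription factor genes Snai1, Snai2, Twist1, Zeb1 and Zeb2, the intermediate filament genes Vim and Nes, the cadherin gene Cdh2, and the contractile genes Acta2 and Tagln. They were chosen by gene symbol, and all 10 were found among the 24421 symbols of each library. The libraries form 2 groups of 3, which were set against each other. The glioma libraries came from endothelial cells sorted from tumors 3 weeks after orthotopic injection of GL26l glioma cells, as the design text spells the line, into C57BL/6 mice. The normal libraries came from endothelial cells sorted from normal brain of the same strain. No transgene, deletion or drug is named for either group. The RNA sets are called independent, but no label ties each to an animal of its own. The p-values therefore reflect how these libraries vary, and that variation may be technical. The study asked what sets tumor vessels apart from brain vessels at the level of transcripts.

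In a mesenchymal transition, a cell joined to its neighbours by an epithelial or vascular cadherin loosens those junctions and takes on features of a motile or contractile cell. Snail, Twist and ZEB proteins bind E-boxes, short DNA elements with the letters CANNTG, and the Snail and ZEB proteins repress junction genes through them. In endothelium the process is called endothelial-to-mesenchymal transition. Most of these genes also have a place outside it. Vimentin is the usual intermediate filament of endothelium, N-cadherin links endothelial cells to pericytes, smooth muscle actin and transgelin belong to mural cells, and ZEB2 is also made by microglia and macrophages.

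The deposited values are on a log2(x + 1) scale and were read as quantile-normalized, so the read depth of each library is unknown. The libraries were alike in their highest value and summed level, but not in how many genes stood at 0. A gene without reads stands at 0. The lowest value above 0 was 0.415, 3.82 and 5.22 in glioma replicates 1, 2 and 3, and 7.43, 2.84 and 0.222 in normal replicates 1, 2 and 3. A gene at 0 in normal replicate 1 may therefore have a level that would show as a value above 0 in another library. Normal replicates 2 and 3 were alike (Pearson's r = 0.97 across 5880 genes above 0 in all libraries, where genes are not independent replicates), while normal replicate 1 reached only 0.58 and 0.60 with them. With limma, 0 of 11862 tested genes passed a Benjamini-Hochberg adjusted p of 0.05 (0% called), the smallest adjusted p was 0.875, and 509 genes (4.29%) had an unadjusted p under 0.05. Of the members, 9 passed the filter on low values and were tested, and Twist1 was not. None of these 9 passed the adjusted threshold, and 2, Snai1 and Vim, had an unadjusted p under 0.05.

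The endothelial markers were present throughout, as all 16 lay above 0 in every library, led by Egfl7, Pecam1 and Cd34. Markers of other cell types were also found, and they differed widely between libraries of the same group. Fibroblast markers (Col1a2, Col3a1 and Col1a1 the highest) above 0 numbered 11, 4 and 1 of 12 in glioma replicates 1, 2 and 3, and 4, 4 and 6 in normal replicates 1, 2 and 3. Microglia and macrophage markers (Cx3cr1 and C1qa among the highest) numbered 16, 4 and 15 of 18 in the glioma libraries and 6, 7 and 9 in the normal ones. Mural markers (Rgs5, Mcam and Abcc9 the highest) numbered 13, 16 and 14 of 18, against 12, 16 and 18. Glioma or neural progenitor markers (Prom1, Dcx and Sox11 the highest) numbered 10, 6 and 5 of 13, against 3, 7 and 9. Astrocyte markers (Slc1a2, Gja1 and Aldoc the highest) numbered 8, 6 and 7 of 10, against 6, 9 and 9. Neuron markers (Map2, Stmn2 and Rbfox3 the highest) numbered 7, 2 and 3 of 8, against 3, 8 and 8, and oligodendrocyte markers (Cnp and Mbp among the highest) 5, 5 and 1 of 8, against 1, 8 and 6. Of all 24421 genes, 13108, 10954 and 10013 were above 0 in glioma replicates 1, 2 and 3, against 7446, 11853 and 13072 in normal replicates 1, 2 and 3. Counts above 0 therefore also depend on how many genes a library shows at all. In such sorted bulk samples, fewer cells of a type and less RNA per cell cannot be told apart.

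Snai1 is shown with its promoter because it was the only member whose glioma libraries all lay above all normal libraries. Twist1 stands beside it as another E-box factor that was at 0 in normal replicates 1 and 2. Both stretches are the 140 bases just before the transcription start in RefSeq on GRCm38.p6, the build also called mm10, on the plus strand, at chr2:167538055-167538194 for Snai1 and at chr12:33957531-33957670 for Twist1. Capitals mark CANNTG, which reads the same on both strands.
Snai1: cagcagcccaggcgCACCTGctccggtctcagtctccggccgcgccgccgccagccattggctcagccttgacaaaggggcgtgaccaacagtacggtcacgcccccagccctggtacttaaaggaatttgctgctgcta
Twist1: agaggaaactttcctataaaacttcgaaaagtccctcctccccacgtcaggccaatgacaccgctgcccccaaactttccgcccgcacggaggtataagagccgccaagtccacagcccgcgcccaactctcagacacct
The Snai1 element has the letters CACCTG, a form of CANNTG that Snail and ZEB proteins bind, and begins 126 bases before the start. Of the members, 6 have a promoter in the table, with 9 starts in all. In the 250 bases before those starts, CACCTG or its reverse complement CAGGTG occurred for Snai1 alone, and CANNTG in any form for Snai1 once and for Acta2 3 times. Over 32851 promoters, 17.2% held CACCTG or CAGGTG in 250 bases and 66.2% held CANNTG, so neither is rare. A match is a string of letters and not a measured site.

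Snai1 was above 0 in all glioma libraries and in a single normal one. Snai1 (chromosome 2, 167538195 to 167542814, plus strand) encodes Snail, a zinc finger repressor of cadherin and claudin genes. It stood at 7.90, 5.71 and 6.77 in glioma replicates 1, 2 and 3, against 0, 0 and 3.30 in normal replicates 1, 2 and 3. The groups did not overlap, as the lowest glioma value of 5.71 was above the highest normal value of 3.30. Across all tested genes, 6.91% had the glioma libraries wholly above the normal ones, so 1 member of 9 is near that background. The fitted difference was 5.69 (SE 2.26, limma unadjusted p = 0.034, adjusted p = 0.875), and an exact two-sided permutation test over the 6 libraries gave p = 0.1, the smallest that 3 against 3 allows. The size of this difference rests on values listed at 0. With values under 7.43 raised to that shared floor, the lowest non-zero value of normal replicate 1, it was 0.16 (SE 0.14), because only glioma replicate 1 lay above that floor.

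Snai2 resembled Snai1 in where it was listed at 0, but its groups overlapped. Snai2 (chromosome 16, 14705852 to 14709385, plus strand) encodes Slug, the Snail paralog. It was at 3.56, 5.47 and 7.13 in glioma replicates 1, 2 and 3, against 0, 0 and 3.81 in normal replicates 1, 2 and 3. Normal replicate 3 was thus above glioma replicate 1, and every Snai2 value lay under the shared floor. The fitted difference was 4.12 (SE 2.22, limma adjusted p = 0.875) and 0 at the shared floor. The third Snail family gene, Snai3, was at 0 in all 6 libraries.

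Twist1 was above 0 in 1 library of each group. Twist1 (chromosome 12, 33957671 to 33959829, plus strand) encodes a basic helix-loop-helix factor of mesoderm and neural crest. Its values were 8.04, 0 and 0 in glioma replicates 1, 2 and 3, against 0, 0 and 2.70 in normal replicates 1, 2 and 3. With values above 0 in only 2 libraries it missed the filter, and without that filter its fitted difference was 1.78 (SE 2.37, limma adjusted p = 0.824 over 15633 genes). Glioma replicate 1 was also the library with 11 of 12 fibroblast markers above 0, where their summed level was 12.09 on the log2 scale, against 9.46 and 5.71 in glioma replicates 2 and 3 and 10.18, 7.34 and 6.37 in normal replicates 1, 2 and 3. Its Twist2, Foxc2 and Hand2 values, looked up after the Twist1 values were seen, were 5.13, 8.47 and 7.74, and these genes were at 0 elsewhere except for Foxc2 at 1.58 in normal replicate 3. Hand1 and Gsc were at 0 in all libraries. Glioma replicate 1 also had the most genes above 0, 13108. Its summed level of neuron markers was the highest too, at 13.10 against 5.89 to 10.57 in the other libraries. High values there were thus not particular to fibroblast genes. The part of fibroblast RNA in the Twist1 value was not tested.

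The ZEB genes were above 0 in all 6 libraries. Zeb1 (chromosome 18, 5591860 to 5775467, plus strand) encodes a zinc finger and homeobox repressor. It was at 9.51, 9.52 and 9.93 in glioma replicates 1, 2 and 3, against 8.60, 9.90 and 10.31 in normal replicates 1, 2 and 3. The glioma values lay inside the normal range. Its difference was 0.05 (SE 0.66, 95% interval -1.46 to 1.56, limma adjusted p = 0.992), and it was -0.45 without normal replicate 1, the lowest of the normal libraries.

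Zeb2 had a higher mean in glioma, short of the threshold. Zeb2 (chromosome 2, 44983632 to 45117395, minus strand) encodes the other ZEB repressor, which also binds SMAD proteins. It stood at 10, 8.49 and 9.41 in glioma replicates 1, 2 and 3, against 9.47, 7.15 and 7.35 in normal replicates 1, 2 and 3. Only normal replicate 1 reached the glioma values. The difference was 1.31 (SE 0.95, limma adjusted p = 0.875) and 2.05 (SE 0.75, limma adjusted p = 0.468) without normal replicate 1. Without that library the groups did not overlap, as was so upward for 14.7% of all tested genes. The summed level of 18 microglia and macrophage markers was 10.37, 9.91 and 13.93 in glioma replicates 1, 2 and 3, against 11.99, 8.40 and 8.15 in normal replicates 1, 2 and 3. It was thus low in the same normal libraries as Zeb2, and its part in the Zeb2 values was not tested. The antisense gene Zeb2os lies over Zeb2 and was at 8.15, 0 and 8.01 in glioma replicates 1, 2 and 3, against 9.21, 7.30 and 6.62 in normal replicates 1, 2 and 3. Zeb2os spans 45110707 to 45114087, near the 5′ end of Zeb2 and wholly inside it. The libraries were made from transcript 3′ ends, and the 3′ end of Zeb2os itself lies within Zeb2. The use of strand in the counting is not given in the sources used here, and mixing of reads between the pair was not tested.

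**Figure D1:**
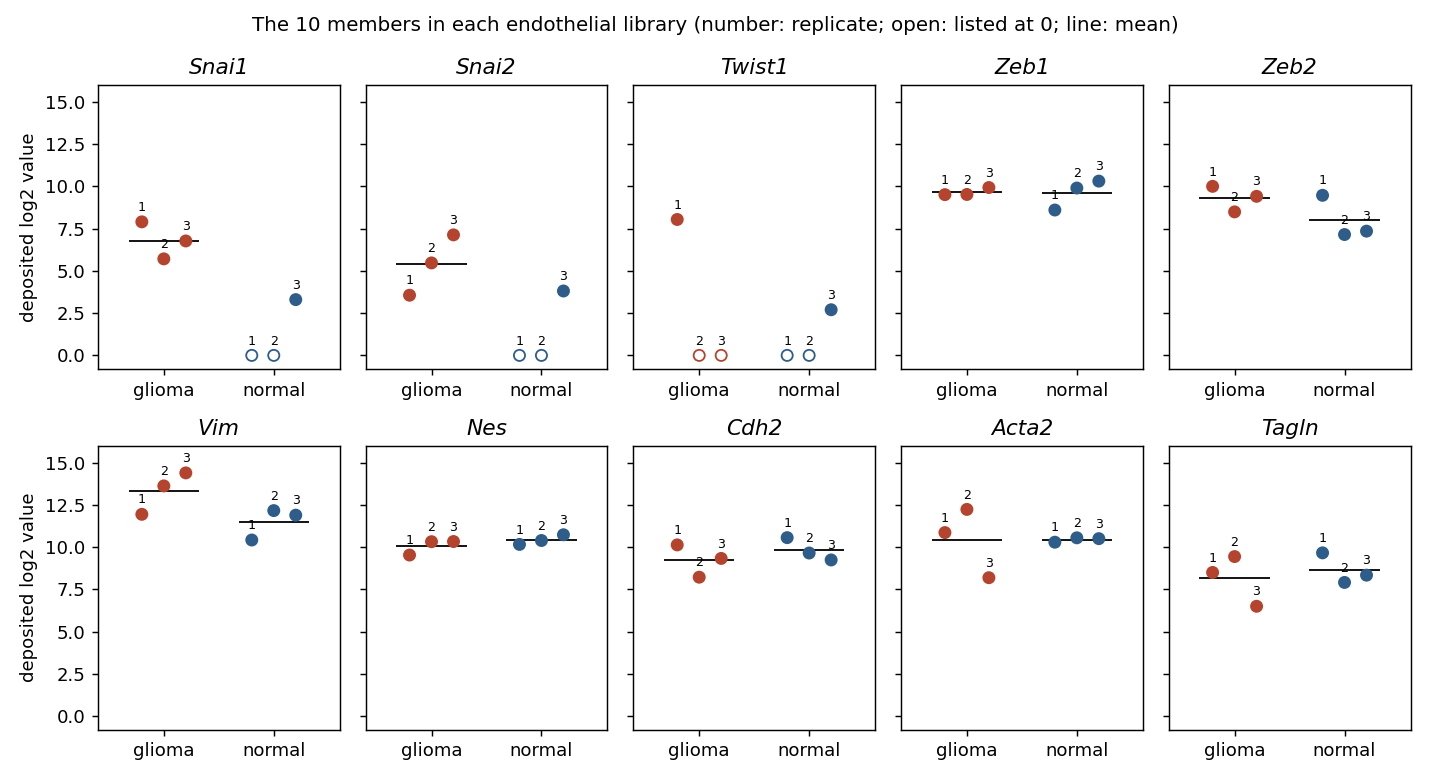
Deposited log2 value (vertical axis) of each of the 10 members in the 3 glioma and 3 normal libraries, with the replicate number beside each point, open points for genes listed at 0 and a line at the mean where all 3 values are above 0. Snai1 is the only member whose glioma points (5.71 to 7.90) all lie above the normal points (0 to 3.30), while Twist1 is at 8.04 in a single glioma library.

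Vimentin was higher on average in the glioma libraries, while nestin was not. Vim (chromosome 2, 13573927 to 13582826, plus strand) encodes the type III filament protein of mesenchymal and endothelial cells. Its values were 11.94, 13.62 and 14.39 in glioma replicates 1, 2 and 3, against 10.42, 12.16 and 11.89 in normal replicates 1, 2 and 3. The groups overlapped only through glioma replicate 1, which lay just under normal replicate 2. Vim averaged 13.32 ± 1.25 in glioma and 11.49 ± 0.94 in normal libraries (SD, n = 3 each), a difference of 1.83 (SE 0.73, 95% interval 0.17 to 3.48, limma unadjusted p = 0.0343, adjusted p = 0.875). This difference was the same at the shared floor, at 1.83, since all Vim values lay above it, and it ranged from 1.29, without glioma replicate 3, to 2.52, without glioma replicate 1.

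By rank, Vim was among the most abundant transcripts in 5 libraries. It lay above 94.3%, 98.6% and 99.3% of the genes above 0 in glioma replicates 1, 2 and 3, against 70%, 94.7% and 94% in normal replicates 1, 2 and 3. With values read as quantile-normalized, this rank largely restates the value and is no separate measure. It is also taken over the genes above 0 in each library, of which normal replicate 1 had the fewest, 7446. Nes and Zeb1 had their lowest ranks there too, above 64.7% and 28.5% of those genes. Vimentin is made by many cell types, so marker levels are given beside it. The summed microglia and macrophage level was highest in glioma replicate 3, at 13.93, as was Vim. That level was next highest in normal replicate 1, at 11.99, where Vim was lowest. Sox2 and Sox11, transcription factor genes of neural progenitors and glioma cells, were at 7.92, 5.53 and 8.47 and at 13.89, 6.13 and 7.58 in glioma replicates 1, 2 and 3. In normal replicates 1, 2 and 3 Sox2 was at 0, 0 and 1.22, and Sox11 at 0, 2.84 and 1.12. Of the 8 tested genes of this marker list, 3 were wholly higher in glioma, Sox2, Sox11 and Fabp7, and 1 wholly lower, Bcan. Across all tested genes, 6.91% were wholly higher and 6.37% wholly lower. Fabp7 was at 5.51, 5.53 and 6.20 in glioma, all under the lowest value above 0 of normal replicate 1, where it was at 0. Bcan, a proteoglycan gene, was at 0 in all 3 glioma libraries and at 8.79, 6.59 and 6.27 in normal replicates 1, 2 and 3. It passed the filter through the normal libraries alone. The summed level of the 13 markers of that list was 14.96, 14.83 and 14.58 in glioma replicates 1, 2 and 3. In normal replicates 1, 2 and 3 it was 13.56, 15.67 and 15.54, so the groups overlapped. Outside glioma replicate 1, most of that sum was a single gene, Prom1. Prom1 was at 13.59, 14.82 and 14.54 in glioma replicates 1, 2 and 3, against 13.48, 15.65 and 15.52 in normal replicates 1, 2 and 3. In which cells the Vim transcripts lay was not tested.

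Nes (chromosome 3, 87971078 to 87980451, plus strand) encodes nestin, a type VI filament protein of neural progenitors that is also made by endothelial cells and pericytes. It stood at 9.53, 10.32 and 10.33 in glioma replicates 1, 2 and 3, against 10.16, 10.39 and 10.73 in normal replicates 1, 2 and 3. The values were close in all libraries, with glioma replicate 1 the lowest. Nes averaged 10.06 ± 0.46 in glioma and 10.43 ± 0.28 in normal libraries (SD, n = 3 each), a difference of -0.36 (SE 0.53, 95% interval -1.56 to 0.84, limma adjusted p = 0.896). The difference stayed below 0 with each library left out, from -0.50 to -0.10.

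Within a library, Vim exceeded Nes by 2.41, 3.30 and 4.06 log2 steps in glioma replicates 1, 2 and 3, against 0.26, 1.76 and 1.17 in normal replicates 1, 2 and 3. The glioma differences were wholly above the normal ones. This pairing was chosen after the values were seen, and it was not particular to Nes: Vim minus another gene was wholly higher in glioma for 41.1% of 5879 genes above 0 in all libraries. The same measure for the other pairs overlapped between groups. Zeb1 minus Zeb2 was -0.48, 1.03 and 0.53 in glioma replicates 1, 2 and 3, against -0.87, 2.75 and 2.97 in normal replicates 1, 2 and 3, so Zeb2 was the higher of the pair in the first replicate of each group alone.

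**Figure D2:**
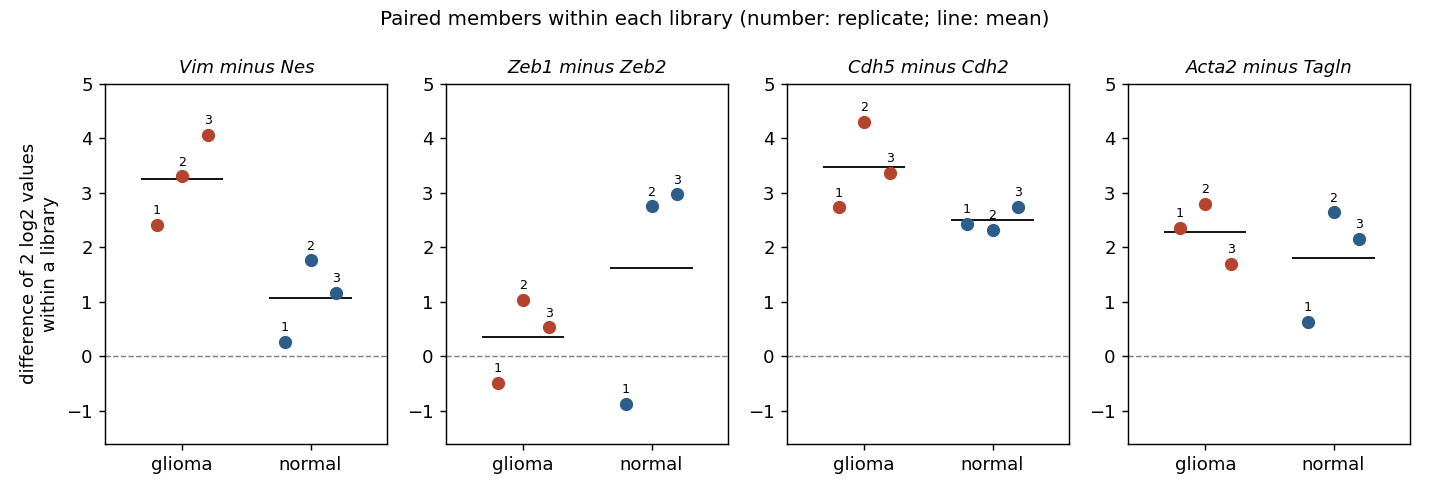
Difference of 2 log2 values within each library (vertical axis) for Vim minus Nes, Zeb1 minus Zeb2, Cdh5 minus Cdh2 and Acta2 minus Tagln, with replicate numbers and a line at the mean of each group of 3. The Vim minus Nes points are 2.41 to 4.06 in glioma and 0.26 to 1.76 in normal libraries, and the other 3 pairs overlap between the groups.

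N-cadherin had a lower mean and the endothelial cadherin a higher mean in the glioma libraries, both short of the threshold. Cdh2 (chromosome 18, 16588877 to 16809246, minus strand) encodes N-cadherin, which replaces E-cadherin in the classical epithelial form of the transition. It was at 10.13, 8.22 and 9.33 in glioma replicates 1, 2 and 3, against 10.56, 9.65 and 9.24 in normal replicates 1, 2 and 3. The ranges overlapped, and the first replicate was the highest in each group. The difference was -0.59 (SE 0.73, 95% interval -2.26 to 1.08, limma adjusted p = 0.886), and it ranged from -1.04, without glioma replicate 1, to -0.09, without glioma replicate 2. Cdh5, the vascular endothelial cadherin, stood at 12.86, 12.52 and 12.70 in glioma replicates 1, 2 and 3, against 12.99, 11.97 and 11.98 in normal replicates 1, 2 and 3. The fitted Cdh5 difference was 0.38 (SE 0.46, 95% interval -0.66 to 1.42), at a limma adjusted p of 0.881, and it was 0.21 without normal replicate 2 and 0.72 without normal replicate 1. Cdh5 exceeded Cdh2 in every library, by 2.73, 4.30 and 3.37 in glioma replicates 1, 2 and 3, against 2.43, 2.32 and 2.74 in normal replicates 1, 2 and 3. Glioma replicate 1 lay just under normal replicate 3, so the groups overlapped.

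Acta2 and Tagln, the contractile members, did not pass the test, and both varied more among the glioma than among the normal libraries. Acta2 (chromosome 19, 34241090 to 34255590, minus strand) encodes smooth muscle alpha actin. It was at 10.86, 12.23 and 8.19 in glioma replicates 1, 2 and 3, against 10.29, 10.55 and 10.50 in normal replicates 1, 2 and 3. The normal libraries lay within 0.26 of each other, while the glioma libraries spanned 4.04 and lay on both sides of them. Acta2 averaged 10.43 ± 2.05 in glioma and 10.45 ± 0.14 in normal libraries (SD, n = 3 each), a difference of -0.02 (SE 0.93, limma adjusted p = 0.997). The direction turned with 1 library, as the difference was 1.10 without glioma replicate 3 and -0.92 without glioma replicate 2.

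Tagln (chromosome 9, 45929619 to 45936058, minus strand) encodes transgelin, an actin-binding protein of smooth muscle. Its values were 8.50, 9.44 and 6.50 in glioma replicates 1, 2 and 3, against 9.66, 7.91 and 8.34 in normal replicates 1, 2 and 3. Glioma replicate 3 was the lowest library for Tagln as for Acta2, and glioma replicate 2 the highest of its group for both. The difference was -0.49 (SE 1.08, 95% interval -2.94 to 1.96, limma adjusted p = 0.937), and it was 0.33 without glioma replicate 3. The 3′ end of Tagln overlaps that of Pcsk7 on the other strand. Pcsk7 was at 3.81, 10.31 and 0 in glioma replicates 1, 2 and 3, against 0, 8.71 and 9.55 in normal replicates 1, 2 and 3, so reads of the pair may have been mixed if strand was not used.

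All 18 mural markers were tested, with 0 wholly higher, 3 wholly lower (Myh11, Myl9 and Anpep) and a median difference of -0.63. Across all tested genes, 6.91% were wholly higher and 6.37% wholly lower, and the median difference was 0.05. Myh11, the smooth muscle myosin heavy chain, was at 0, 8.36 and 0 in glioma replicates 1, 2 and 3, against 9.07, 9.40 and 9.49 in normal replicates 1, 2 and 3. It was wholly lower in glioma, with a fitted difference of -6.53 (SE 2.67, limma adjusted p = 0.875) that rests on 2 libraries at 0. Anpep, an aminopeptidase of pericytes, was at 6.28, 0 and 0 in glioma replicates 1, 2 and 3, against 8.45, 6.54 and 6.31 in normal replicates 1, 2 and 3. Other pericyte genes overlapped between the groups. Abcc9, a subunit of a potassium channel of pericytes, was at 10.58, 10.94 and 13.14 in glioma replicates 1, 2 and 3, and so was highest in the library where Acta2 and Tagln were lowest, against 10.76, 9.04 and 9.78 in normal replicates 1, 2 and 3. Pdgfrb, the receptor that recruits pericytes, stood at 7.53, 10.10 and 10.95 in glioma replicates 1, 2 and 3, against 11.15, 10.03 and 10.36 in normal replicates 1, 2 and 3. The summed level of the 18 mural markers was 13.31, 13.80 and 14.53 in glioma replicates 1, 2 and 3, against 14.59, 13.27 and 13.51 in normal replicates 1, 2 and 3. In glioma replicate 1, where Acta2 was at 10.86, 13 of the 18 mural markers were above 0, with Rgs5 at 12.43, and Myh11, Des, Lmod1, Kcnj8 and Atp13a5 were at 0. Lmod1 and Kcnj8 were also at 0 in normal replicate 1, where Acta2 was at 10.29. The part of mural RNA in the Acta2 and Tagln values was not tested.

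**Figure D3:**
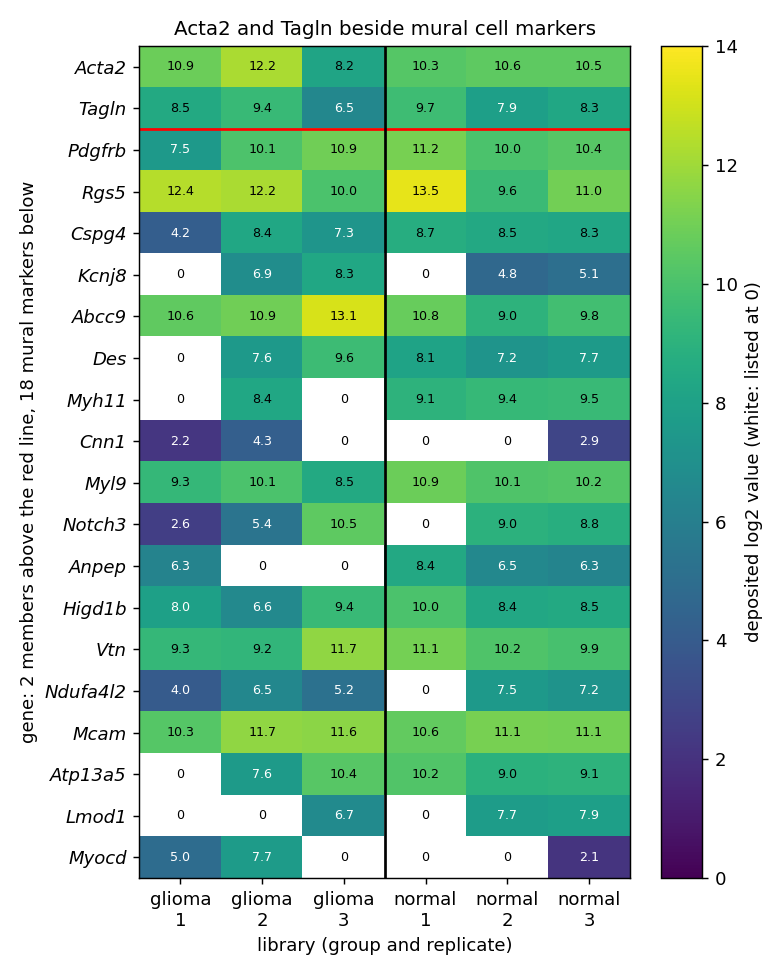
Deposited log2 values of Acta2 and Tagln (above the red line) and of 18 mural cell markers (below it), with 1 column per library, the glioma libraries left of the normal ones, and white cells for genes listed at 0. Acta2 and Tagln are lowest in glioma replicate 3 (8.19 and 6.50), where Abcc9 is at 13.14 and Myh11 is at 0.

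**Figure D4:**
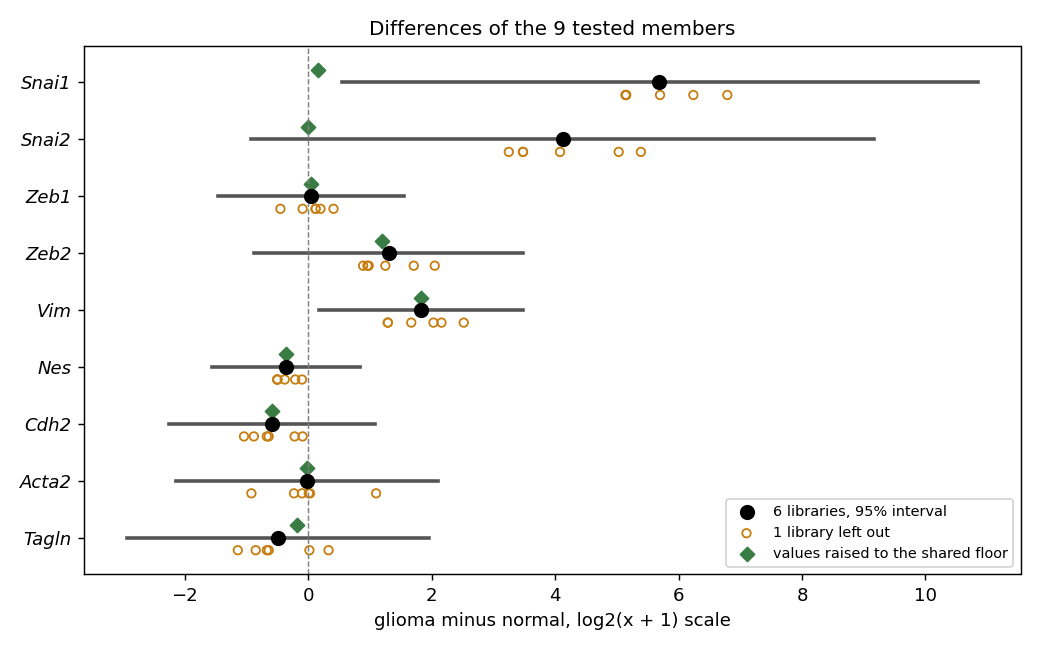
Glioma minus normal difference on the log2(x + 1) scale (horizontal axis) for the 9 tested members, with the 95% interval of the limma fit, the differences with 1 library left out, and the difference with values raised to the shared floor of 7.43. Snai1 and Snai2 drop from 5.69 and 4.12 to 0.16 and 0 at the shared floor, while Vim stays at 1.83.

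Counted over the 5 transcription factor genes, 5, 4 and 4 were above 0 in glioma replicates 1, 2 and 3, against 2, 2 and 5 in normal replicates 1, 2 and 3. Normal replicate 3 thus had as many as any glioma library, with the 3 rarest of them at 2.70 to 3.81. Such low values could be seen in normal replicate 3, with its lowest value of 0.222, and not in normal replicate 1. The median of the 9 tested members' differences was 0.05, equal to that of all 11862 tested genes. For the 7 members above 0 throughout it was -0.02, among which the differences ran from -0.59 for Cdh2 to 1.83 for Vim.

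The genes whose pattern over the 6 libraries was most like that of a member were found among the 5880 genes above 0 throughout, by the root mean square difference of log2 values after centring each gene on its mean. For Vim these were Apod, Arf4 and Nedd4, at 0.22, 0.26 and 0.30. Ormdl2, Dnajc14 and Bmpr2 were nearest to Nes, at 0.10, 0.11 and 0.14. Zeb1 had Selt, Ctbp1 and Chd6 at 0.16, 0.16 and 0.18, and Zeb2 had Arhgap23, Tma7 and Srsf2 at 0.21, 0.22 and 0.25. Those nearest to Cdh2 were Zfp655, Ext2 and Cracr2b, at 0.11, 0.16 and 0.19. Zc3hav1, Glg1 and Bcl2l11 were nearest to Acta2 at 0.31, 0.36 and 0.37, and Akap13 and 4933427D14Rik were among those nearest to Tagln, both at 0.20. Neither contractile gene had the other, nor a mural marker, among its nearest 3. Only 8 of the 18 mural markers were among the 5880 genes searched, so 3 places give no test of a shared source.

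Other genes of the programme were followed by role, in 7 lists. None of their tested members passed the adjusted threshold in either direction, and each list's smallest limma adjusted p was 0.875. The lists are therefore described by counts of genes whose groups did not overlap, beside 6.91% of all tested genes wholly higher and 6.37% wholly lower, and by their medians, beside 0.05 for all tested genes.

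Among intermediate filaments and linkers, 7 of 14 were tested, with 1 wholly higher, 1 wholly lower and a median of 0.33. Lmnb1, the nuclear lamin B1 gene, was the higher one at 10.69, 10.91 and 9.16 in glioma replicates 1, 2 and 3, against 7.81, 7.03 and 8.34 in normal replicates 1, 2 and 3. Its difference was 2.53 (SE 0.81, limma unadjusted p = 0.0128). Synm, which encodes synemin, a partner of vimentin and desmin in filaments, was at 11.54, 12.80 and 12.73 in glioma replicates 1, 2 and 3, against 13.32, 13.60 and 13.67 in normal replicates 1, 2 and 3, in the opposite direction to the Vim mean. Des, the muscle filament desmin, was at 0, 7.60 and 9.62 against 8.14, 7.22 and 7.65, so its groups overlapped. Gfap, the astrocyte filament, was at 0 in all 3 glioma libraries and at 0, 2.84 and 2.17 in normal replicates 1, 2 and 3.

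Of 27 E-box factors and partners, 18 were tested, with 2 wholly higher, 0 wholly lower and a median of 0.05. Prrx1, a homeobox gene of mesenchyme, was wholly higher at 9.64, 8.25 and 5.48 in glioma replicates 1, 2 and 3, against 0, 3.92 and 3.06 in normal replicates 1, 2 and 3. The other was Klf8, a Krüppel-like factor gene, at 6.00, 5.89 and 7.04 in glioma against 0, 5.54 and 4.18 in normal libraries. All Klf8 values were under 7.43, the lowest value above 0 in normal replicate 1. Its 0 in that library is therefore no evidence of a lower level. Tcf3, the gene of the E proteins that pair with Twist, overlapped, at 11.05, 11.99 and 12.46 in glioma against 0, 11.37 and 11.77 in normal libraries. Its fitted difference of 4.12 fell to 0.27 without normal replicate 1, where it was at 0. Ctbp2, a corepressor of ZEB proteins, was at 10.43, 10.75 and 9.54 in glioma against 10.44, 11.37 and 11.37 in normal libraries.

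Of 12 cadherins and catenins, 9 were tested, with 1 wholly higher, 0 wholly lower and a median of 0.38. The higher one was Cdh1, the E-cadherin gene that Snail represses in epithelia, at 7.53, 4.07 and 5.22 in glioma replicates 1, 2 and 3, against 0, 3.42 and 0 in normal replicates 1, 2 and 3. These are low values near or below the lowest of normal replicate 1. Ctnna1, the alpha catenin that ties cadherins to actin, was at 10.89, 12.28 and 12.96 in glioma against 11, 10.42 and 11.05 in normal libraries, and Cdh4, R-cadherin, at 8.06, 7.42 and 8.29 against 0, 7.83 and 7.41. The groups of both overlapped. The 11 endothelial junction targets were all tested, with 0 wholly higher, 0 wholly lower and a median of 0.06. Cldn5, the main claudin of brain endothelium, had the smallest p among them, with a difference of -1.35 (SE 0.82), followed by Tek and Jam2, each at 0.62 (SE 0.46 and 0.61). Without glioma replicate 3 the differences were 0.35 for Tek and 0.15 for Jam2, and without normal replicate 1 that of Cldn5 was -2.16.

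Of 27 SRF, myocardin family and contractile genes, 25 were tested, with 1 wholly higher, 2 wholly lower and a median of 0.12. Cnn3, a calponin of non-muscle cells, was the higher one at 11.35, 11.95 and 12.23 in glioma replicates 1, 2 and 3, against 10.28, 11.32 and 11.19 in normal replicates 1, 2 and 3. The lower ones were Myh11 and Myl9, a myosin light chain of smooth muscle, which was at 9.30, 10.06 and 8.48 in glioma against 10.88, 10.13 and 10.23 in normal libraries. Tpm4, a tropomyosin, was at 10, 12.97 and 13.19 in glioma against 10.02, 10.29 and 10.71 in normal libraries, and so was high in the same 2 glioma libraries as Vim. Myocd, the coactivator that drives the smooth muscle genes, was at 4.97, 7.67 and 0 in glioma against 0, 0 and 2.12 in normal libraries, and it was highest where Acta2 and Tagln were highest within glioma. Myocd was looked up after the Acta2 and Tagln values were seen. Across the normal libraries it did not follow Tagln, as Myocd was at 0 in normal replicate 1, where Tagln was highest. Within glioma, Srf and Mkl2 of the same list were highest in replicate 3, at 10.69 and 13.03, and Mkl1 in replicate 1, at 9.59.

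Of 25 inducers and transducers, 19 were tested, with 1 wholly higher, 2 wholly lower and a median of 0.01. Tgfb2, a ligand that induces the transition, was one of the lower ones at 10.28, 10.26 and 8.98 in glioma replicates 1, 2 and 3, against 10.58, 10.53 and 10.81 in normal replicates 1, 2 and 3. The other was Smad7, an inhibitor of TGF-beta signalling, at 8.42, 8.22 and 8.56 in glioma against 8.96, 8.80 and 9.17 in normal libraries. Fgfr1, a receptor of fibroblast growth factors, was wholly higher at 10.51, 10.41 and 10.20 in glioma against 0, 9.55 and 9.38 in normal libraries, with a fitted difference of 4.06 that fell to 0.91 without normal replicate 1. Smad3, a transducer of TGF-beta signals, was at 7.69, 8.59 and 9.85 in glioma against 0, 6.89 and 8.09 in normal libraries and overlapped.

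Of 20 mesenchymal products, 14 were tested, with 3 wholly higher, 0 wholly lower and a median of 1.11. Only 6 of the 20 were above 0 in all libraries, and over those the median was 0.26. Loxl2, a lysyl oxidase, was wholly higher at 9.29, 6.38 and 8.11 in glioma replicates 1, 2 and 3, against 0, 4.71 and 4.80 in normal replicates 1, 2 and 3. Cd44, a hyaluronan receptor, was at 9.89, 9.33 and 11.13 in glioma against 10.01, 0 and 5.33 in normal libraries, and so was high in normal replicate 1 too. Itga5, an integrin chain that binds fibronectin, was also wholly higher, at 5.60, 7.27 and 6.69 in glioma against 0, 4.71 and 3.37 in normal libraries. All its glioma values were under 7.43, the lowest value above 0 in normal replicate 1. Such levels could not show in that library, so its 0 there is no evidence of a lower level.

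**Figure D5:**
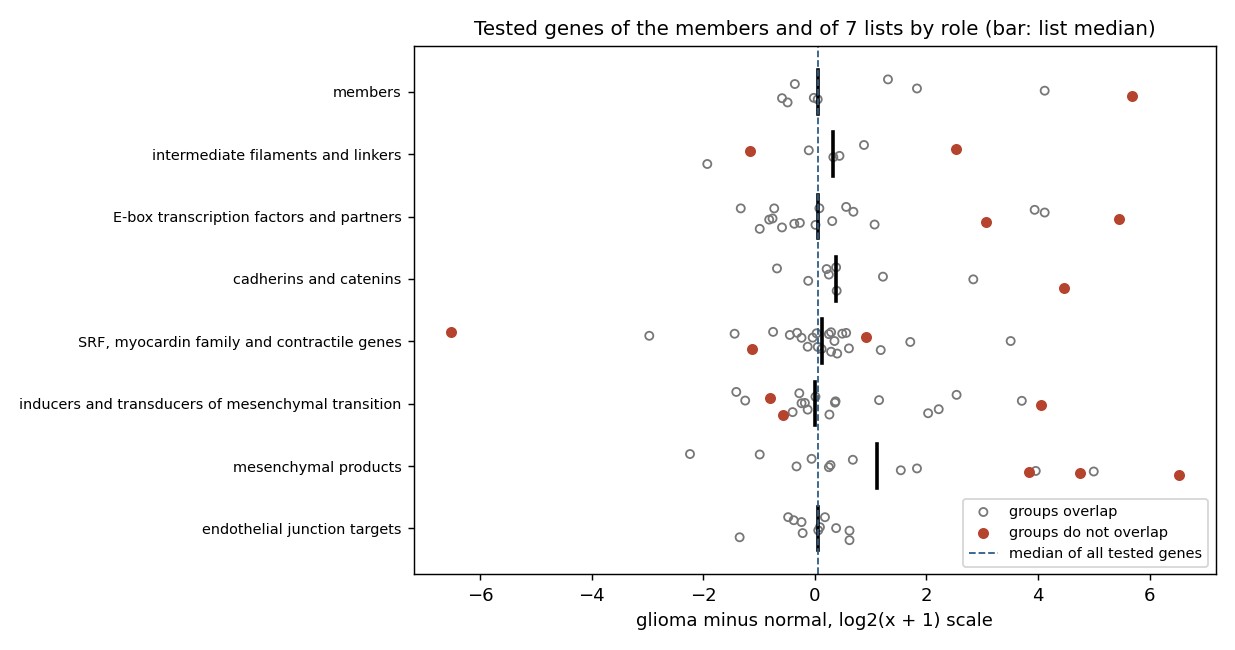
Glioma minus normal difference on the log2(x + 1) scale (horizontal axis) of each tested gene among the members and in 7 lists by role, with a bar at each list's median and a dashed line at the median of all tested genes (0.05). Filled points are genes whose groups did not overlap, and the mesenchymal products have 3 of them and a median of 1.11.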

How the data were processed

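RNA from sorted endothelial cells (3 glioma and 3 normal libraries, grouped by sample title) was made into QuantSeq libraries of transcript 3′ ends, per the labels' protocols. Bowtie2, edgeR and mm10 are named without role, per the submitters' processing notes. For the counter, use of strand, annotation and normalization, the sources used here give nothing. The deposited values are log2, with 1 per symbol. Back-transformed (2 to the value, minus 1), 99.98% of non-zero values gave a whole number when multiplied by 6, within a tolerance of 0.02. All libraries held nearly the same sorted values, so they were read as quantile-normalized by the authors. No counts are held, so depth is unknown.

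The limma fit (version 3.58.1, R 4.3.3) took genes that reached a back-transformed 1 in 3 or more libraries (mean trend, group as the only term, Benjamini-Hochberg over all genes tested). The fit was also run on simulated data, with the same noise for every gene and without the zeros and floors of these libraries. That run gives no check on genes listed at 0. Named by rule were the 10 members, the 3 smallest p of each of 7 lists by role, Cdh5, the 3 nearest genes of each member above 0 throughout, and the 3 highest of each of 8 marker lists. Some genes that the rule names are not reported here. Zeb2os and Pcsk7 were named for overlapping a member, and the remaining genes after their values were seen. Members and lists were chosen with earlier results of these data known. Positions are from GENCODE M21. Alternatives were a shared floor, a pseudocount of 16, no filter, genes above 0 in all libraries, no trend, a replicate block, and each library left out.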

Additional observations from a re-analysis of the deposited data

How the results depend on the processing

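No member and no gene of the 7 lists passed the adjusted threshold under any alternative. Over all genes the count past it was 0 in each, except 15 with limma without the mean trend. Alternatives were run for the 9 tested members, Cdh5 and the genes named by p from the lists by role. Of these, the following turned direction. Zeb1 was at -0.09 without glioma replicate 3 and -0.45 without normal replicate 1 (range -0.45 to 0.41 with 1 library left out), and at -0.38 with glioma replicate 1 and normal replicate 1 both left out, a setting chosen after seeing the data. Acta2 ranged from -0.92 to 1.10 and Tagln from -1.14 to 0.33 with 1 library left out. Des was at 0.48 with the shared floor, at 1.17 with both first replicates left out, and from -3.87 to 0.94 with 1 library left out. Snai2 was at 0 with the shared floor. Snai1 was at 2.80 with a pseudocount of 16 and 0.16 with the shared floor. With a replicate block, 0 genes passed and 610 had an unadjusted p under 0.05. Vim stayed at 1.83 there (SE 0.41, limma unadjusted p = 0.00236, adjusted p = 0.79). The numbers share no stated source, so the samples were not treated as paired. Deviations from the group mean correlated at 0.19, 0.15 and 0.06 for same-numbered libraries, and from -0.19 to 0.19 for the others. As the deviations within a group sum to 0, these correlations cannot decide whether the samples were paired. Unknown depth and values at 0 limit Snai1, Snai2 and Twist1.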
